A study of Homo sapiens with 4 samples.

Results

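The promoters of 49 chaperone and heat shock genes were examined in ATAC-seq data, which reads open chromatin from where a transposase can cut and tag it. The genes belonged to the HSP90 family (4 genes), the HSP70 family (12), the mitochondrial chaperonin HSPD1 and HSPE1 (2), the small heat shock genes (2), the heat shock factors (2), the DNAJ family (11), co-chaperones (8) and the CCT chaperonin (8). A peak was taken as a member when it lay within 1 kb of any annotated transcription start of one of these genes. This gave 84 of the 139872 consensus peaks, and they belonged to 43 of the 49 genes. HSPA1A, HSPA1B, HSPA1L, HSF1, DNAJC7 and FKBP4 had no consensus peak of the table used here within 1 kb, and they are not analysed here. The missing peaks are no measure of closed chromatin: around HSPA1A, HSPA1B and HSPA1L the table used here holds no row at all over a wide stretch of chromosome 6. The peak of highest mean signal over the 4 libraries is called the lead peak of a gene, and HSPD1 and HSPE1 shared 1 lead peak, so there were 42 lead peaks.

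The libraries came from the MLL-rearranged B cell precursor leukemia line SEM, whose cells expressed dCas9-KRAB. That fusion of a nuclease-dead Cas9 and a repressor domain was present in both groups. One group carried sgFLT3-DE-1, whose guide matches an FLT3 enhancer that HOXA9 binds, and the other the non-target control guide sgNT, with 2 libraries in each group, numbered 1 and 2. Per the study's notes the guides were delivered by lentivirus and the cells selected with puromycin, so each library represents a selected pool. The labels describe no heat treatment. They do not say whether the libraries of a guide came from separate cultures, so p-values reflect how far these particular libraries differ, a spread that may be technical.

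Chaperones bind unfolded or partly folded proteins and use cycles of ATP hydrolysis, or a closed chamber, to let them fold. HSP70 proteins take up a client with the help of a DNAJ protein, nucleotide exchange factors release it, HSP90 acts on later steps of clients such as kinases and steroid receptors, and the CCT ring encloses actin and tubulin. In heat or proteotoxic stress the transcription factor HSF1 binds heat shock elements in the promoters of the inducible genes, while an overloaded endoplasmic reticulum (ER) induces its own chaperones through other factors and the ER stress element. Many chaperone promoters are open without stress, since the proteins are needed in every growing cell.

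Over all consensus peaks the sgFLT3-DE-1 libraries held 3670758 and 4831164 counts and the sgNT libraries 3321429 and 2683477. At the site of the guide, the consensus peak chr13:28842815-28843351 (hg19) had 66.1 and 74.7 normalised CPM with sgFLT3-DE-1, against 126 and 140 with sgNT. CPM expresses a peak's count relative to the library's TMM-scaled total over tested peaks. The estimate at that site was -0.92 on the log2 scale (SE 0.264), with an adjusted p of 1.0 in edgeR. Of 7 B cell precursor markers, 6 had a peak within 1 kb of a start (all but CD79A), with a summed signal of 124 to 168 CPM per library. Of 4 T cell markers only CD3E had one, with at most 1.11 CPM. The 3 myeloid markers summed to 34.6 to 50 CPM, most of it at CEBPA.

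Sequences upstream of the starts were read first, because the families differ in how they are induced. In windows of 300 bases (250 before and 50 from the canonical start on, both strands searched), the heat shock element of 3 inverted units, GAANNTTCNNGAA, was present in 72 of 19808 protein-coding promoters (0.363%) and in 8 of the 49 members (16.3%). These were HSP90AA1, HSPA6, HSPA8, HSPH1, HSPD1, DNAJA1, DNAJB6 and CHORDC1, and 7 of them are among the 17 members that are textbook targets of HSF1. No ER chaperone (0 of 6) and no CCT gene (0 of 8) held it. The shorter form of 2 units, GAANNTTC, which lies within every 3-unit match, was present in 5.41% of all promoters and 32.7% of the members, HSPA1A, HSPA1B, DNAJB1, HSPB1 and TCP1 included. Within the peaks themselves the 3-unit form was found in 11 of 84 member peaks (13.1%) and in 0.23% of all 24327 promoter peaks.

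The stretches before the start that carry the element are shown for 6 genes, because this element was found at a larger share of the members than of all promoters. DNAJB6 is the 1 gene with it that is outside the HSF1-target list. Each is written 5′ to 3′ on the strand of the gene, from the GRCh37 genome, and capitals mark the match to the 3-unit heat shock element. Each stretch lay wholly within a consensus peak.
HSP90AA1 (GRCh37 chr14:102553382-102553606, minus strand): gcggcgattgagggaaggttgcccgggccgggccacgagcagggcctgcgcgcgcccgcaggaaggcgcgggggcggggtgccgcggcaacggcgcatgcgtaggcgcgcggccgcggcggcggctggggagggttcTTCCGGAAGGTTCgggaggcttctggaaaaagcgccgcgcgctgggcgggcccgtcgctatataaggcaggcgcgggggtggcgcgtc
HSPA6 (GRCh37 chr1:161494119-161494329, plus strand): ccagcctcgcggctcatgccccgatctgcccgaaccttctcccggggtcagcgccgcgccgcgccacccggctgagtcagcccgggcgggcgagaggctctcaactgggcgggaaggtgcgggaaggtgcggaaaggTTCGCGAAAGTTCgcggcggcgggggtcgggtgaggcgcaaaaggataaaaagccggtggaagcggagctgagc
HSPH1 (GRCh37 chr13:31736065-31736231, minus strand): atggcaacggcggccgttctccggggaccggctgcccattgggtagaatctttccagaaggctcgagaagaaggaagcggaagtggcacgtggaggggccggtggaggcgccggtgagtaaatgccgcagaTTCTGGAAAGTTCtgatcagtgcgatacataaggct
HSPA8 (GRCh37 chr11:122933061-122933094, minus strand): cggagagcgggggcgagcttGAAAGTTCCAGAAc
DNAJB6 (GRCh37 chr7:157129468-157129659, plus strand): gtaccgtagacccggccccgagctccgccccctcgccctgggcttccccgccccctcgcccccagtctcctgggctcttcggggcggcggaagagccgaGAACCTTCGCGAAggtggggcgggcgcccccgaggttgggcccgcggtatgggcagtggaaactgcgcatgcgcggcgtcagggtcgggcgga
CHORDC1 (GRCh37 chr11:89956246-89956404, minus strand): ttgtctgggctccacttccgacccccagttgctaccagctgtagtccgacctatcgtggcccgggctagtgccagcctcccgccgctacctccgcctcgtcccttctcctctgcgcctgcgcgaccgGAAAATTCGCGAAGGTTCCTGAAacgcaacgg

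The match began 88 bases before the start in HSP90AA1, 74 in HSPA6, 59 in HSPH1, 131 in DNAJB6 and 230 in HSPA8. CHORDC1, which encodes an HSP90-binding protein, held 3 overlapping matches that began 60, 55 and 50 bases before the start. The genes with an element did not share a level of openness, as the lead peaks below show: that of HSPA6 was among the lowest of all members, with 22.8 CPM per kb on average in sgNT, against 103 at CHORDC1.

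The ER stress element, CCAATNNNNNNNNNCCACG, was present in 21 of 19808 promoters (0.106%). Only HSPA5 and HSP90B1 among the 49 members held it, and both encode major chaperones of the ER lumen. The HSPA5 stretch is shown with the match in capitals.
HSPA5 (GRCh37 chr9:128003662-128003819, minus strand): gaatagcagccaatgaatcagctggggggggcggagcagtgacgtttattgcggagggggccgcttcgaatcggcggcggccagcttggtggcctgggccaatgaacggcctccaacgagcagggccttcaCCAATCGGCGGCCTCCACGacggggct

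In that gene the match began 66 bases before the start, and the stretch lay wholly within the HSPA5 lead peak. The general promoter motif CCAAT was present in 46.9% of members and 36% of all promoters, GGGCGG in 85.7% and 61.5%, and TATAAA in 10.2% and 9.65%. These matches are descriptions of letters, not of bound factors.

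Accessibility of the members ranged over more than an order of magnitude. The values that follow are CPM per kb of peak, which allow levels to be set side by side between genes. HSPA13, which encodes an HSP70 protein of the ER and microsomes, had the highest lead peak, with 418 and 328 CPM per kb with sgNT and 545 and 301 with sgFLT3-DE-1. HSF2, a heat shock factor, followed with 389 and 254 with sgNT and 400 and 247 with sgFLT3-DE-1, and the CCT subunit gene CCT6A with 302 and 227 with sgNT and 258 and 220 with sgFLT3-DE-1. In each of these 3 genes the number 1 library lay above the number 2 library with both guides, and the guides overlapped.

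The lowest lead peaks were those of stress genes and of a mitochondrial DNAJ gene. BAG3, a nucleotide exchange factor that is strongly induced by stress, had 16.1 and 19.3 CPM per kb with sgNT and 14.3 and 8.45 with sgFLT3-DE-1. HSPA6, an HSP70 gene that is almost silent without heat, had 19.2 and 26.3 with sgNT and 15.9 and 22.2 with sgFLT3-DE-1. DNAJA3, which encodes a mitochondrial partner of HSP70 and whose lead peak also covers a start of CORO7, had 23.6 and 26.2 with sgNT and 21.2 and 21.5 with sgFLT3-DE-1. Of all promoter peaks, 17.5% were lower per kb than the BAG3 lead peak in sgNT and 26.8% lower than that of HSPA6.

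By family, the median lead level in sgNT was 121 CPM per kb for the 8 CCT genes, 85.3 for the 9 HSP70 genes with a peak, 82.7 for the 7 co-chaperones, 79.2 for the 10 DNAJ genes and 35.5 for the 4 HSP90 genes. The lead peaks of the cytosolic HSP90 genes lay below the median promoter peak (42.5 CPM per kb), with 39.3 and 31.7 at HSP90AA1 and 34 and 37.1 at HSP90AB1 in sgNT. A shorter peak at an alternative start of HSP90AA1, described further on, lay above it with 64.2 and 57.7. HSP90B1, the ER member of that family, stood above them with 145 and 156 CPM per kb. The ER list (HSP90B1, HSPA5, HSPA13, DNAJB9, DNAJB11, DNAJC3) had a median of 186 CPM per kb over its 6 lead peaks, the 13 lead peaks of the HSF1-target list 70.1, and the 4 of the mitochondrial list 35.8. Lead peaks whose window held the 3-unit heat shock element had a median of 77.7 (n = 8), and those without it 83.6 (n = 34). All 52 member peaks that covered a start of their gene had a median of 68.4 CPM per kb in sgNT, beside 48.2 for the 12431 tested promoter peaks over a start. No test was run on these levels, since members are not replicates.

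**Figure D1:**
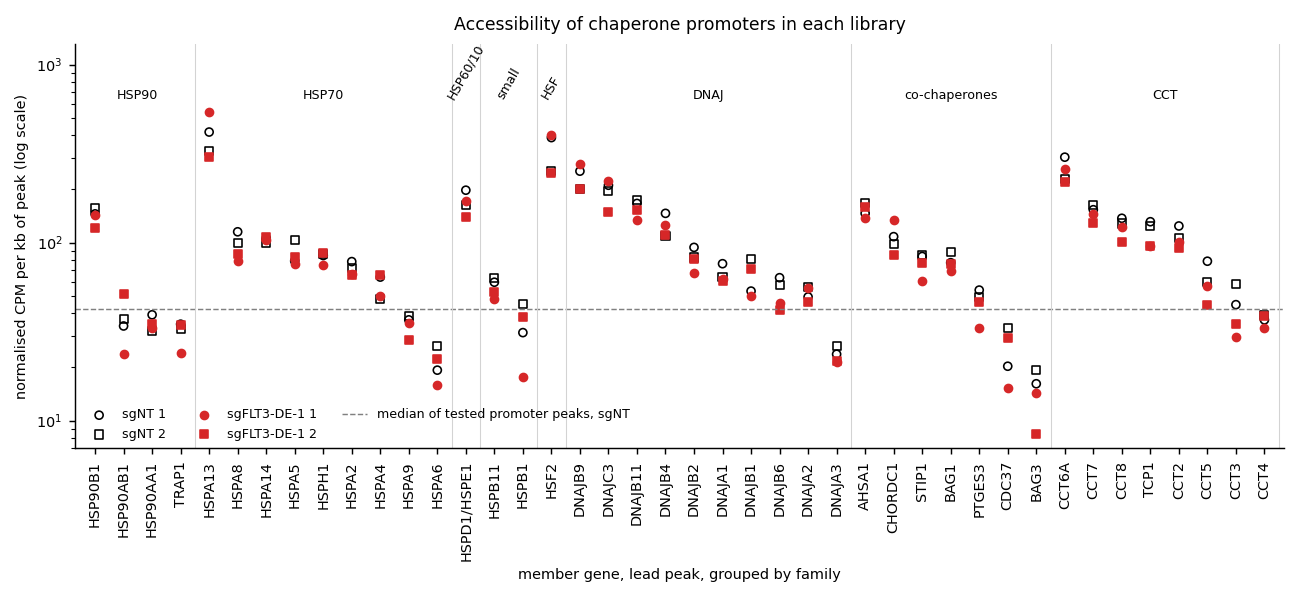
Normalised CPM per kb of peak (vertical axis, log scale) of the 42 lead peaks (horizontal axis, grouped by family) in each of the 4 libraries: open black marks are sgNT, filled red marks sgFLT3-DE-1, circles number 1 and squares number 2. HSPA13 and HSF2 lie highest, BAG3 and HSPA6 lowest, and the dashed line is the median of tested promoter peaks in sgNT, 42.5.

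The comparison of the guides asked whether blocking the FLT3 enhancer went along with a change at these promoters. Of the 84 member peaks, 81 passed the filter on low counts, and at least 1 peak of each of the 43 genes was among them. None passed FDR 0.05 by edgeR's quasi-likelihood test with Benjamini-Hochberg adjustment over all 82558 tested peaks, in which 0% of peaks were called lower and 0.00242% higher. DESeq2 and limma-voom also called 0. At an unadjusted p under 0.05 there were 5 lower and 0 higher member peaks, beside 1.07% and 0.827% of all tested peaks and 2.37% of tested promoter peaks called lower at that level. The count of 5 depended on the fit, and so did the share over all tested peaks. It was 2 with DESeq2, beside 0.155% of all tested peaks, and 18 with the replicate number as a block, beside 4.58%. No such count is given for fits without 1 library, since these leave 1 library in its group. The median SE for a log2 fold change of a lead peak was 0.26, so differences within about that size could not be told from the spread of these libraries. Larger ones could also go uncalled: the peak at the site of the guide, at -0.92 (SE 0.264), did not pass FDR 0.05 either. The 0 calls thus do not show that these promoters were unchanged.

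The estimates nevertheless leaned to one side. Of the 81 tested member peaks, 56 had an estimate below 0 (69.1%), with a median log2 fold change of -0.15. After a correction for GC content these were 45 of 81 (55.6%) and -0.028, beside 46.0% and 0.028 for promoter peaks after the same correction. Without the correction, promoters at large leaned the same way to a lesser degree: 61.4% of the 20234 tested promoter peaks were below 0, with a median of -0.08. Of all tested peaks 48.1% were below 0, with a median of 0.02. Over the 4 pairs of 1 library per guide, the member median ran from -0.21 to -0.17, and 54 to 58 of the 81 peaks were below 0. The promoter median ran from -0.196 to -0.032 over the same pairs. For sgFLT3-DE-1 number 1 against sgNT number 2 it was -0.196, below the member median of -0.179, and in the other pairs the member median was the lower. Among the 42 lead peaks, 35 were below 0 and the median was -0.19, and after the GC correction 28 were below 0 and the median was -0.055. In 20 of the 42 both sgFLT3-DE-1 libraries lay below both sgNT libraries, and in 0 above. Such a separation downwards was seen in 13.8% of all tested peaks, in 22.2% of tested promoter peaks and in 25.9% of those over a start. Upwards it was seen in 13.7%, 8.13% and 5.81% of these sets. Lead peaks were the strongest peaks of their genes, so they are not a sample of promoter peaks at large.

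The share of each library's counts that fell in member peaks was 0.235% and 0.222% with sgFLT3-DE-1, against 0.257% and 0.246% with sgNT. All promoter peaks together took 35.8% and 36.5% with sgFLT3-DE-1, against 38.7% and 38.3% with sgNT. The smaller share was thus seen for promoters as a class. The member peaks made up 0.657% and 0.607% of promoter counts with sgFLT3-DE-1, against 0.665% and 0.643% with sgNT.

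**Figure D2:**
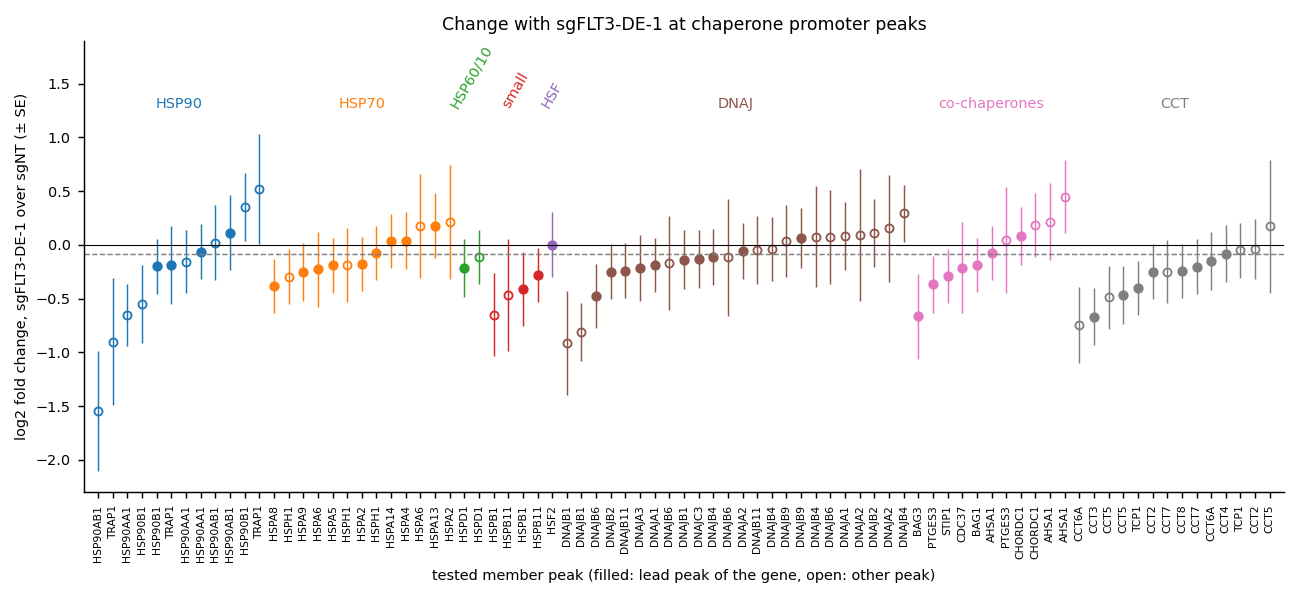
Log2 fold change of sgFLT3-DE-1 over sgNT with its SE (vertical axis) for the 81 tested member peaks (horizontal axis, by family and in order of the estimate), with lead peaks filled. Most points lie between -0.5 and 0.3, none passed FDR 0.05, and the dashed line is the median of tested promoter peaks, -0.08.

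In the HSP90 family 12 peaks were tested and 8 were below 0, with a median of -0.17 (-0.01 after the GC correction). Single libraries moved this median, which was -0.008 without sgFLT3-DE-1 replicate 1 (6 of 12 below 0) and -0.42 without sgFLT3-DE-1 replicate 2 (11 of 12). HSP90AA1, the stress-inducible cytosolic form, had 28.4 and 30.1 CPM in its lead peak (chr14:102553225-102554082) with sgFLT3-DE-1, against 33.8 and 27.2 with sgNT. The groups overlapped, and the log2 fold change was -0.06 (SE 0.258). HSP90AB1, the mainly constitutive cytosolic form, which is also on the HSF1-target list, had 7.72 and 16.6 CPM in its lead peak (chr6:44214569-44214892) with sgFLT3-DE-1, on either side of the 11 and 12 with sgNT (0.11, SE 0.348).

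A weaker peak 237 bp from a start of HSP90AB1 (chr6:44215166-44215366) gave the lowest estimate of all member peaks. It had counts of 5 and 9 with sgFLT3-DE-1, against 14 and 15 with sgNT, or 1.54 and 1.99 CPM against 4.68 and 6.01. The estimate was -1.54 (SE 0.557, unadjusted p = 0.00969 and adjusted p = 1.0 by edgeR) and rests on few reads. A peak at an alternative start of HSP90AA1 (chr14:102605969-102606301, which also covers a start of WDR20) had 13.9 and 12.2 CPM with sgFLT3-DE-1, against 21.4 and 19.2 with sgNT (-0.65, SE 0.289, unadjusted p = 0.0327 by edgeR). Both were chosen after their values were seen, and in both the sgFLT3-DE-1 libraries lay below the controls.

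HSP90B1, which folds secreted and membrane proteins in the ER, had 73.5 and 62.6 CPM in its lead peak (chr12:104323753-104324269) with sgFLT3-DE-1, against 74.9 and 80.9 with sgNT (-0.20, SE 0.256). Its other peaks, upstream, pointed in opposite directions, with estimates of 0.35 and -0.55. TRAP1, the mitochondrial HSP90, had 6.49 and 9.29 CPM in its lead peak (chr16:3767460-3767728) with sgFLT3-DE-1, against 9.36 and 8.81 with sgNT (-0.18, SE 0.362). The median of the 4 HSP90 lead peaks was -0.12, and 0.07 after the GC correction. It ran from -0.306 without sgFLT3-DE-1 replicate 2 to -0.007 without sgFLT3-DE-1 replicate 1.

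In the HSP70 family 13 of 14 peaks were tested and 8 were below 0, with a median of -0.18 that stayed below 0 under every scaling tried (-0.06 after the GC correction). It was -0.026 without sgFLT3-DE-1 replicate 1, -0.06 without sgNT replicate 2 and -0.109 without sgNT replicate 1. HSPA8, the constitutive cytosolic HSP70 that takes part in most folding in growing cells, had the lowest lead estimate of the family. Its lead peak (chr11:122932768-122933403) had 50.3 and 54.6 CPM with sgFLT3-DE-1, against 72.9 and 63.7 with sgNT. The groups did not overlap, the sgFLT3-DE-1 mean was 76.9% of the control mean, and edgeR gave -0.38 on the log2 scale (SE 0.253) with an adjusted p of 1.0.

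HSPA5, the ER chaperone BiP, had 35.5 and 39.1 CPM in its lead peak (chr9:128003520-128003989) with sgFLT3-DE-1, against 37.1 and 48.4 with sgNT (-0.19, SE 0.255). HSPA9, the mitochondrial HSP70, had 21.9 and 17.5 CPM (chr5:137911029-137911646) with sgFLT3-DE-1, against 22.7 and 24 with sgNT (-0.25, SE 0.272). HSPH1, an HSP110 protein that exchanges nucleotides on HSP70, had 31.2 and 36.5 CPM (chr13:31735905-31736323) with sgFLT3-DE-1, against 35.4 and 36 with sgNT (-0.07, SE 0.252). Only at HSPA9 did the groups not overlap.

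The inducible HSPA6 had 7.72 and 10.8 CPM in its lead peak (chr1:161493918-161494404) with sgFLT3-DE-1, against 9.36 and 12.8 with sgNT (-0.23, SE 0.345), and the groups overlapped. HSPA13 had the highest lead estimate of all members. Its lead peak (chr21:15755406-15755870) had 254 and 140 CPM with sgFLT3-DE-1, against 194 and 153 with sgNT (0.18, SE 0.302), with the largest gap in CPM between libraries of one guide among the lead peaks. HSPA4, another HSP110 gene, had 28.1 and 36.9 CPM (chr5:132387268-132387831) with sgFLT3-DE-1, against 36.1 and 27.2 with sgNT (0.04, SE 0.263), and the groups overlapped.

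HSPD1 and HSPE1, the genes of the mitochondrial chaperonin and its lid, are transcribed in opposite directions from 1 shared peak (chr2:198364517-198365200). It had 118 and 95.1 CPM with sgFLT3-DE-1, against 135 and 111 with sgNT (-0.21, SE 0.268), and the groups overlapped. A further peak, 383 bp from an annotated start of HSPD1 and over a start of MOB4, had an estimate of -0.11.

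The small heat shock group held 4 tested peaks, all below 0, with a median of -0.44 (-0.26 after the GC correction), beside a median of 46.3 CPM per kb. The median was -0.182 without sgFLT3-DE-1 replicate 1 and -1.07 without sgFLT3-DE-1 replicate 2, with all 4 peaks below 0 in both cases. HSPB1, the stress-inducible HSP27, had 7.1 and 15.5 CPM in its lead peak (chr7:75931665-75932071) with sgFLT3-DE-1, against 12.7 and 18.4 with sgNT (-0.41, SE 0.343). Its estimate was -0.001 without sgFLT3-DE-1 replicate 1, -1.12 without sgFLT3-DE-1 replicate 2, -0.68 without sgNT replicate 1 and -0.16 without sgNT replicate 2. The number 1 library was the lower of the pair with both guides, and the groups overlapped. HSPB11 encodes a protein of intraflagellar transport in spite of its name, and its lead peak also covers a start of LRRC42. Its estimate was -0.28 (SE 0.252).

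HSF2, the 1 heat shock factor with a peak, had 218 and 135 CPM in it (chr6:122720338-122720882) with sgFLT3-DE-1, against 212 and 139 with sgNT. The libraries of each guide differed far more than the guides, and the log2 fold change was 0.00 (SE 0.3). Its estimate ran from -0.39 to 0.34 when 1 library was left out.

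In the DNAJ family 24 of 25 peaks were tested and 15 were below 0, with a median of -0.09 (0.03 after the GC correction). It was -0.044 without sgFLT3-DE-1 replicate 2, -0.145 without sgFLT3-DE-1 replicate 1 and -0.185 without sgNT replicate 2. DNAJA1, a cytosolic HSP40 that is induced by heat, had 37.1 and 36 CPM in its lead peak (chr9:33024934-33025526, which also covers a start of APTX) with sgFLT3-DE-1, against 45.1 and 38 with sgNT (-0.19, SE 0.252). DNAJB9, an ER protein that binds BiP, had 175 and 126 CPM (chr7:108209903-108210534, which also covers starts of PNPLA8 and THAP5) with sgFLT3-DE-1, against 159 and 127 with sgNT (0.07, SE 0.279). DNAJB6, which keeps aggregation-prone proteins soluble, had 13 and 11.9 CPM (chr7:157129459-157129742) with sgFLT3-DE-1, against 18 and 16.4 with sgNT (-0.47, SE 0.296), and its groups did not overlap.

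DNAJB1, the main stress-inducible HSP40, had the lowest p of the family at 1 of its 3 peaks. The lead peak (chr19:14640030-14640492) lay at an alternative start 10821 bp from the canonical one and also covers a start of TECR. It had 23.2 and 32.7 CPM with sgFLT3-DE-1, against 24.7 and 37.6 with sgNT (-0.14, SE 0.275), and the number 1 library was the lower of the pair with both guides. The peak over the canonical start (chr19:14629174-14629780), singled out after its values were seen, had 16.7 and 19.2 CPM with sgFLT3-DE-1, against 27.4 and 36 with sgNT. That was 56.6% of the control, and -0.81 on the log2 scale (SE 0.269, unadjusted p = 0.00554 and adjusted p = 1.0 by edgeR). It was the lowest p of any member peak, and over 14 alternatives the estimate ran from -1.01 to -0.62. With the replicate number as a block the adjusted p by edgeR was 0.0203, which passes FDR 0.05, and with both block and GC correction it was 0.213. The fit with the block called 57 of all tested peaks lower and 17 higher, so such calls were not limited to members. A small peak 70 bp from a start had an estimate of -0.91 (SE 0.483), with counts of 11 and 12 against 16 and 15.

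Among the co-chaperones 11 of 12 peaks were tested and 6 were below 0, with a median of -0.07 (-0.03 after the GC correction). It was -0.284 without sgFLT3-DE-1 replicate 2 and -0.236 without sgNT replicate 1. BAG3 had the second lowest lead estimate of all members. Its lead peak (chr10:121410438-121410934) had counts of 23 and 19 with sgFLT3-DE-1, against 24 and 24 with sgNT, or 7.1 and 4.2 CPM against 8.02 and 9.61 (-0.67, SE 0.398, adjusted p = 1.0 by edgeR). The groups did not overlap, but these are among the lowest counts of any lead peak. CHORDC1 had 61.5 and 39.1 CPM in its lead peak (chr11:89956168-89956625) with sgFLT3-DE-1, against 49.5 and 44.8 with sgNT (0.08, SE 0.266).

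The CCT genes encode the 8 subunits of a ring. All 8 lead peaks and 13 of the 14 tested peaks had an estimate below 0, with a median of -0.24 that stayed below 0 under every scaling tried (-0.13 after the GC correction, with 10 of 14 peaks and 6 of 8 lead peaks below 0). On leaving out 1 library it ran from -0.371 without sgNT replicate 2 to -0.197 without sgFLT3-DE-1 replicate 2. In 6 of the 8 lead peaks both sgFLT3-DE-1 libraries lay below both controls. That was seen in 47.6% of all lead member peaks, 25.9% of tested promoter peaks over a start and 13.8% of all tested peaks. The lead peaks of CCT4 and CCT7 also cover starts of COMMD1 and PRADC1. TCP1, subunit alpha, had 38.6 and 38.7 CPM (chr6:160210572-160210973, which also covers a start of MRPL18) with sgFLT3-DE-1, against 52.5 and 49.6 with sgNT. Its replicates lay closer together than its guides, at 75.7% of the control, or -0.40 on the log2 scale (SE 0.25), and the adjusted p by edgeR was 1.0.

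CCT3 had the lowest lead estimate of all 42. Its lead peak (chr1:156307982-156308653, which also covers a start of TSACC) had 19.8 and 23.4 CPM with sgFLT3-DE-1, against 30.1 and 39.2 with sgNT, at 62.3% of the control (-0.67, SE 0.264, unadjusted p = 0.0171 and adjusted p = 1.0 by edgeR). CCT5 had 25.6 and 20.1 CPM (chr5:10250223-10250673) with sgFLT3-DE-1, against 35.4 and 27.2 with sgNT (-0.47, SE 0.267), and a neighbouring peak over another start had -0.49. CCT2 had 27.8 and 25.6 CPM (chr12:69979054-69979329) with sgFLT3-DE-1, against 34.1 and 29.2 with sgNT (-0.25, SE 0.257). In all 3 the sgFLT3-DE-1 libraries lay below both controls.

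CCT6A was among the most open members, and its lead peak (chr7:56119015-56119531, which also covers a start of PSPH) had 133 and 114 CPM with sgFLT3-DE-1, against 156 and 117 with sgNT (-0.15, SE 0.273). A weaker peak over another annotated start of CCT6A (chr7:56130224-56130401), singled out after its values were seen, had 5.87 and 7.52 CPM with sgFLT3-DE-1, against 10.4 and 12.4 with sgNT (-0.74, SE 0.356, unadjusted p = 0.0463 by edgeR). At a GC content of 37.6% it was the most AT-rich of the member peaks. Its groups did not overlap, while those of the lead peak did.

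GC content moved with the change across promoters, so each member was set beside promoters of like composition. Tested promoter peaks were divided by GC content into 10 bins of like size, and their median log2 fold change went from 0.04 in the lowest bin (28.7% to 48.3% GC) to -0.17 in the highest (76.1% to 88.2%). Member peaks had a median GC content of 63.3%, beside 64.9% for tested promoter peaks and 49.2% for all tested peaks. Relative to the promoter median of its own bin, the median difference of the 81 member peaks was -0.07. It ran from -0.15 to -0.02 over the 4 pairs of 1 library per guide, so its size was not stable between libraries. By family this difference was -0.31 for the small heat shock group (4 peaks), -0.17 for CCT (14), -0.10 for HSP70 (13), -0.04 for HSP90 (12), -0.04 for the co-chaperones (11) and 0.00 for DNAJ (24). On leaving out 1 library it ran from -0.813 to -0.068 for the small group and from -0.303 to -0.005 for CCT, both ends set by the sgFLT3-DE-1 libraries. It changed sign for HSP70 (-0.021 to 0.029), HSP90 (-0.19 to 0.088), the co-chaperones (-0.112 to 0.028) and DNAJ (-0.107 to 0.094), so the order of the families is not stable. The part of GC content in the member estimates was not tested beyond these values.

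**Figure D3:**
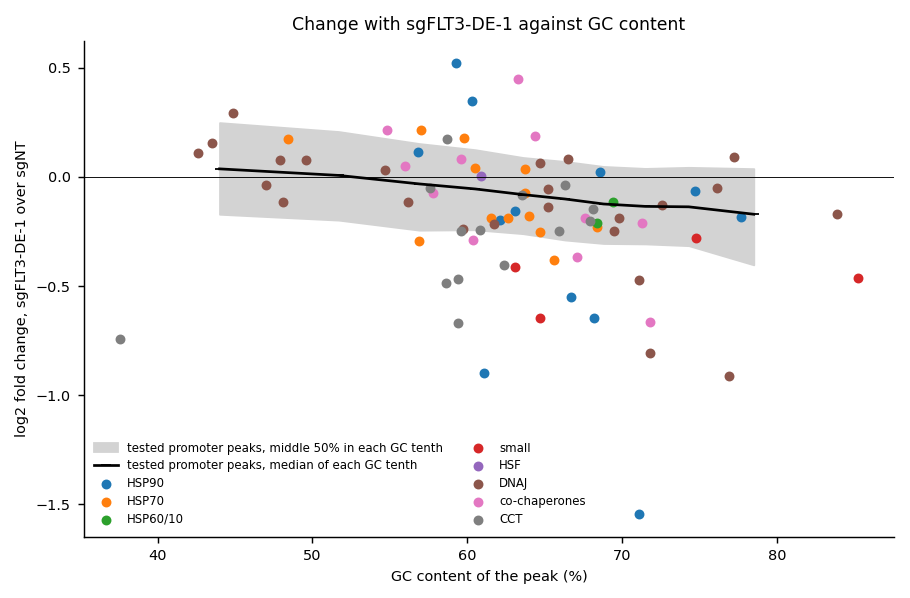
Log2 fold change of sgFLT3-DE-1 over sgNT (vertical axis) against GC content of the peak in percent (horizontal axis) for the 81 tested member peaks, coloured by family, over the median (line) and middle 50% (band) of tested promoter peaks in each of 10 bins of GC content. The promoter median goes from 0.04 to -0.17, and most member peaks lie within or just below the band.

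Peaks over a start had lower estimates than peaks beside one, given here as a description. The 52 peaks over a start of their gene had a median of -0.21 with 42 below 0 (-0.072 with 34 below 0 after the GC correction), beside a median of -0.11 and 67.3% below 0 for all 12431 tested promoter peaks over a start (0.023 and 46.4% after it). The 29 beside a start had a median of 0.02 with 14 below 0 (48.3%). Tested promoter peaks as a whole, over a start or not, had a median of -0.08 with 61.4% below 0. Promoter peaks over a start thus lay below promoter peaks as a whole too, so the direction was not particular to members. Relative to promoters of like GC content, the median difference was -0.097 for member peaks over a start and 0.062 for those beside one. The 22 member peaks that also covered the start of another protein-coding gene had a median of -0.17 with 19 below 0 (86.4%). The 59 that did not had a similar median of -0.15, but a smaller share, 37 (62.7%), below 0. For the former the counts cannot be assigned to either gene.

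By list of induction or compartment, the 28 tested peaks of the HSF1-target list had a median of -0.17 with 20 below 0. The 10 of the ER list had -0.09 with 6 below 0, and the 7 of the mitochondrial list -0.21 with 6 below 0. HSPD1 and HSPE1 are on both the HSF1-target and the mitochondrial list, so these lists share peaks. Members on none of the lists had a median of -0.13 over 38 peaks with 26 below 0. Relative to promoters of like GC content, the median differences were -0.07 for the HSF1-target list and 0.037 for the ER list. They were -0.089 for the mitochondrial list and -0.068 for the remaining members. Lead peaks with and without the 3-unit heat shock element had medians of -0.20 (n = 8) and -0.19 (n = 34). Single estimates ran from -1.54 to 0.45 in the HSF1-target list and from -0.74 to 0.29 among the remaining members. Of the HSF1-target list, peaks of HSP90AB1 (-1.54) and DNAJB1 (-0.91 and -0.81), described above, lay below that second range. So did a TRAP1 peak of the mitochondrial list (-0.90). That TRAP1 peak, the HSP90AB1 peak and the DNAJB1 peak of -0.91 rest on few reads.

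Further genes of the folding machinery stood in part nearer to promoters at large. Of 48 listed genes outside the members (ER folding enzymes, prefoldin, further co-chaperones, further DNAJ and mitochondrial genes), 42 had a tested peak that belonged to no member, and 0 were called by edgeR, DESeq2 or limma-voom. Of their 67 tested peaks, 48 were below 0, with a median of -0.15, and an unadjusted p under 0.05 was reached by 4 in the lower direction and 0 in the higher. That was 71.6% below 0, beside 69.1% of member peaks and 61.4% of promoter peaks. Both sgFLT3-DE-1 libraries lay below both controls in 22.4% of them, beside 38.3% of member peaks and 22.2% of promoter peaks. Relative to promoters of like GC content their median difference was -0.033, beside -0.066 for member peaks. The lowest lead estimates were those of CRELD2, an ER stress gene (-0.94, SE 0.278), of PPP5C, a phosphatase that binds HSP90 (-0.94, SE 0.415), of FKBP5, a co-chaperone of steroid receptors (-0.72, SE 0.277), and of P4HB, a protein disulfide isomerase (-0.56, SE 0.254). These 4 had the lowest p in their list, between 0.00204 and 0.0357 unadjusted by edgeR, and none passed the adjustment. They were named after their values were seen.

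**Figure D4:**
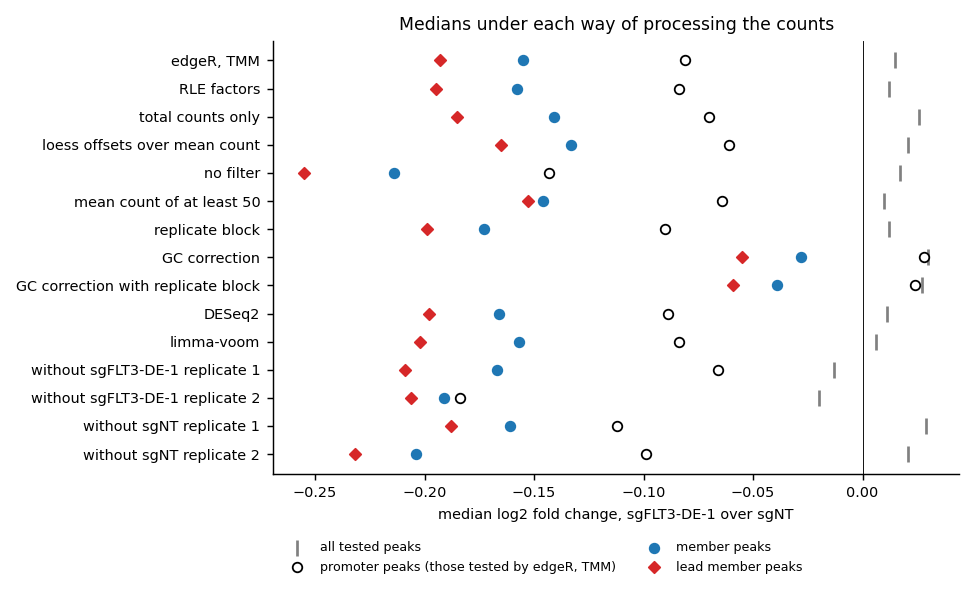
Median log2 fold change of sgFLT3-DE-1 over sgNT (horizontal axis) of member peaks (blue), lead member peaks (red), promoter peaks (open) and all tested peaks (grey bars) under each way of processing the counts (vertical axis). The member median stayed below 0 and below the promoter median in all 15, from -0.21 to -0.03, and was nearest 0 after the GC correction.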

How the data were processed

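ATAC-seq libraries of SEM cells with dCas9-KRAB and sgFLT3-DE-1 or sgNT were grouped by title. The authors deposited raw counts per consensus peak (hg19), and peaks were called in the libraries that were compared. Their sources name different tools. The extract protocol has cutadapt 1.18 and Bowtie2 2.2.9, while the submitters' processing notes list MACS2 2.1.1.20160309, bedtools 2.24.0, SAMtools 1.2, Trim Galore 0.4.4 and BWA. The study's reporting notes describe properly paired, uniquely mapped reads and peak calling on short nucleosome-free fragments, and its methods name HTSeq for counting. Whether the deposited counts hold all fragments or the short ones, and any transposase shift, are not given in the sources used here.

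The group was the only term in an edgeR 4.0.16 quasi-likelihood fit (R 4.3.3) after filterByExpr (minimum count 10, total 15), which left 82558 peaks, with TMM scaling. The SE was computed as |log2 fold change| / sqrt(F). The procedure was tested on simulated counts. With 2 libraries a group, exact permutation p-values start at 0.33. Alternatives were RLE factors, total counts, loess offsets over mean count, GC correction by loess (span 0.3), other filters, DESeq2 1.42.0, limma-voom (limma 3.58.1), the replicate number, other windows and leaving out each library. ABSSeq, the test of the study's methods, was not run.

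Starts were taken from GENCODE lifted to GRCh37, and all peaks lay within its chromosome ends. HSPB11 was matched by its older symbol. The members and lists were chosen with earlier results of these data known. Named were the lead peaks of main genes of each family, the 5 lowest and 5 highest lead estimates, the 3 highest and 3 lowest levels in sgNT, and members with no peak. The result of 1 further list of marker genes is not reported here.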

Additional observations from a re-analysis of the deposited data

How the results depend on the processing

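Member peaks called at FDR 0.05 remained 0 in both directions under every alternative with 2 libraries a group except the replicate block. That fit called 1 lower member peak, over the canonical start of DNAJB1 (-0.82, SE 0.183, adjusted p = 0.0203 by edgeR). With the GC correction as well, the adjusted p of that peak by edgeR was 0.213. The replicate block also called 1 other chaperone gene, CRELD2. Over all 82558 tested peaks it called 57 lower and 17 higher, against 0 and 2 with the group as the only term. Lower member peaks at an unadjusted p under 0.05 (5, beside 1.07% of all tested peaks) were 18 with the replicate block, beside 4.58% of all tested peaks. They were 2 with DESeq2, beside 0.155%, and 7 with both GC correction and block, beside 3.36%. At a mean count of at least 50 they were 3 of 45, beside 1.05% of all peaks tested there. The numbers 1 and 2 are not stated to mark a batch. Deviations of same-numbered libraries from their group mean correlated at 0.397 over all tested peaks, and 29 of the 42 lead peaks differed between the numbers in the same direction with both guides (69.0%, beside 66.5% of tested promoter peaks and 65.8% of all tested peaks). The median of member peaks (-0.15) was -0.13 with loess offsets over mean count, -0.21 with no filter, -0.17 with the replicate block, -0.028 with the GC correction, -0.039 with the GC correction and the replicate block, and from -0.20 to -0.16 on leaving out each library. It was -0.18 for starts within 500 bp (69 peaks), -0.17 within 2 kb (88 peaks) and -0.19 for 1 peak per gene. Peaks below 0 were 36 of 45 at a mean count of at least 50 and 35 of 42 with 1 peak per gene. The other alternatives moved the medians by less than 1 SD over the library pairs and the counts by less than 1.5 times. Of 371 values of the 27 named lead peaks under an alternative, 28 changed sign, all of them where the estimate was within 1 SE of 0, and none passed FDR 0.05. The cause of these shifts was not tested. Leaving out a library leaves 1 in its group, which then borrows the spread of the other guide. The SE was 0.423 at CDC37, the lead peak of fewest reads (13 to 35), 0.25 at TCP1 (124 to 175) and 0.302 at HSPA13, that of most (381 to 821). What set the SE was not tested. Family medians on leaving out each library are given beside the families.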
